A study of Mus musculus with 12 samples.

Results

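The genes described here are the ligand Igf1, the binding proteins Igfbp2, Igfbp3, Igfbp4, Igfbp5, Igfbp6 and Igfbp7, the adaptors Irs1 and Irs2, and the receptor Igf2r, which were found by symbol in the table of raw gene counts and make up 10 of its 55573 genes. They were followed by RNA-sequencing in tumourspheres, free-floating spheres grown from mouse mammary tumour cell lines, after 24 h of treatment. The 4 treatments were the vehicle DMSO, Crizotinib, an inhibitor of the Met receptor kinase, PD173074, an inhibitor of the FGF receptor kinases, and both inhibitors together (Combo). Each treatment had 1 library from each of the lines A1005, A1129 and A1471 (n = 3), all of genotype MMTV-Metmt;Trp53fl/+;Cre, in which the mammary tumour virus promoter drives a mutant Met in mammary cells and Cre removes 1 allele of the tumour suppressor Trp53. The DMSO controls thus carry the same transgene and deletion as the treated spheres, and each line comes from a separate tumour of spindle-cell pathology. The study states that the endogenous Met locus becomes amplified in this model. Which Met the lines express was not examined here. Total counts were 13031492 to 17750476 per library. All 12 libraries held high Vim, the mesenchymal intermediate filament, at 1903 to 3204 CPM (read counts scaled to a library of 1000000, with TMM factors), whereas the epithelial cadherin Cdh1 had at most 9 counts and the basal keratin Krt5 and the adipocyte hormone Adipoq had 0. Other markers of these lists were detected, with the luminal keratins Krt18, Krt19 and Krt8 at up to 49.4, 44.0 and 34.0 CPM, the basal factor Trp63 at up to 13.8 CPM and the lipase gene Lipe at 7.05 to 20.4 CPM. The leukocyte marker Ptprc reached 20.5 CPM and the macrophage marker Cd68 24.4 CPM. Not all mesenchymal markers were high, since the cadherin Cdh2 had at most 6 counts in a library and Col1a1 ranged from 0 to 759 CPM. Twist1, Zeb1, Zeb2, Fn1, Sparc and Fgfr1 were at 21.8 CPM or more in every library.

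Insulin-like growth factors signal through a receptor tyrosine kinase, Igf1r, that phosphorylates the docking proteins Irs1 and Irs2, which in turn recruit PI3-kinase and Grb2. The insulin receptor uses the same adaptors, and the sphere medium of this study contained insulin and no serum. IGF binding proteins are secreted and hold the ligands outside the cell, where most of them limit receptor access and some are cleaved by proteases to release the ligand. Igfbp7 is a more distant relative that binds IGFs weakly. Igf2r, the cation-independent mannose 6-phosphate receptor, takes IGF-II to the lysosome and sorts lysosomal enzymes, and has no kinase.

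The stretches before the transcription starts of the 4 genes that the comparisons turn on are shown with the letters that a search for short motifs found in them. They are the 130 bases before the RefSeq start on the gene's own strand, build GRCm38.p6. Capitals mark CACGTG (E-box) in Irs1 and Irs2, GGGCGG on either strand (GC box) in Igfbp7, and TATAAA, the letters of a TATA box, in Igfbp4.
Irs1 (chr1:82291440-82291569, minus strand): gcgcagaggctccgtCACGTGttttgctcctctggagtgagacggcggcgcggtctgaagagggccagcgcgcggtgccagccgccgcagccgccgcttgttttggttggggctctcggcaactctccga
Irs2 (chr8:11008930-11009059, minus strand): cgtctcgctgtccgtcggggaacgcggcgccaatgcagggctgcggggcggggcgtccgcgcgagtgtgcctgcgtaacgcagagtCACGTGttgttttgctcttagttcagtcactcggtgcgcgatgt
Igfbp7 (chr5:77408046-77408175, minus strand): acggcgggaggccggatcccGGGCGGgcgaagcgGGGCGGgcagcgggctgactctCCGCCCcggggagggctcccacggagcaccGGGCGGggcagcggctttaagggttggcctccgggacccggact
Igfbp4 (chr11:99041114-99041243, plus strand): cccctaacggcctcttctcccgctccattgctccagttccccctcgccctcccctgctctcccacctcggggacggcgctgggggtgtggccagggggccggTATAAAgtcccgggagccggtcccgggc
The GC-rich stretches of Irs1 and Irs2 each held 1 E-box, which begins 115 and 44 bases before the RefSeq start. The GENCODE loci given below begin elsewhere, at chr1:82291416 for Irs1 and chr8:11008458 for Irs2. These distances therefore hold for the RefSeq starts only. Igfbp7 held 4 GC boxes, and the TATA box of Igfbp4 begins 28 bases before the start. Windows of 300 bases (250 before to 50 after the start) were searched on both strands for all 10 genes, which matched 11 of the 32851 windows of the RefSeq table. The E-box stands in 7.15% of all windows, and among these genes also in Igfbp2 and, with 2 copies, Igf2r. The GC box stands in 35.7% of all windows and also in Irs1 upstream of the stretch shown, in Irs2, in Igf2r and in Igfbp2, and the TATA box in 13.6% and also, on the other strand, in Igfbp6. TGTTTAC, a core of the sites that FOXO factors bind, stands in 3.65% of all windows and in none of these 11, and the AP-1 letters TGAGTCA stand in 5.20% and in 1 window of Igfbp2. A match is a description of the letters and not a bound site.

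Igfbp2 and Igfbp5, neighbours on chromosome 1 with 5457 bases between them (mm10 chr1:72824503-72852474 and chr1:72857932-72874884), had 0 counts in every library. Over the 178099197 counts of all libraries together, 0 counts allow a level of up to 0.0168 CPM each, for counting error only. Igfbp1, beside Igfbp3 on chromosome 11, and the ligand gene Igf2 also had 0 counts in every library. The ligand gene Igf1 (mm10 chr10:87858265-87937042) had 0 counts in the 9 libraries of DMSO, Crizotinib and PD173074. With the combination it had 3 counts in A1005, 16 in A1129 and 1 in A1471, at 0.167, 1.003 and 0.0755 CPM. The 20 counts of the Combo libraries came mostly from A1129. Set against the floor of 3 counts over the 3 DMSO libraries, these pooled counts were 6.19-fold higher. That figure leaves out the counting error of the 20 counts and the spread between lines, so it is not a lower bound. Igf1 stayed under the filter for low counts, so no test was made. Filtering left 7 of the 10 genes among the 13836 tested.

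Values were compared with edgeR's quasi-likelihood test in an unpaired fit and in a paired fit, which adds the cell line as a covariate, and a gene was called at a Benjamini-Hochberg adjusted p under 0.05 over all genes tested. The unpaired fit shares its lack of pairing with the analysis of the study, which used other tools and a minimum fold change, and the paired fit compares each treated library with the DMSO library of the same line. Standard errors (SE) of a log2 fold change were taken from its F value. Comparisons with DMSO share the DMSO libraries.

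**Figure D1:**
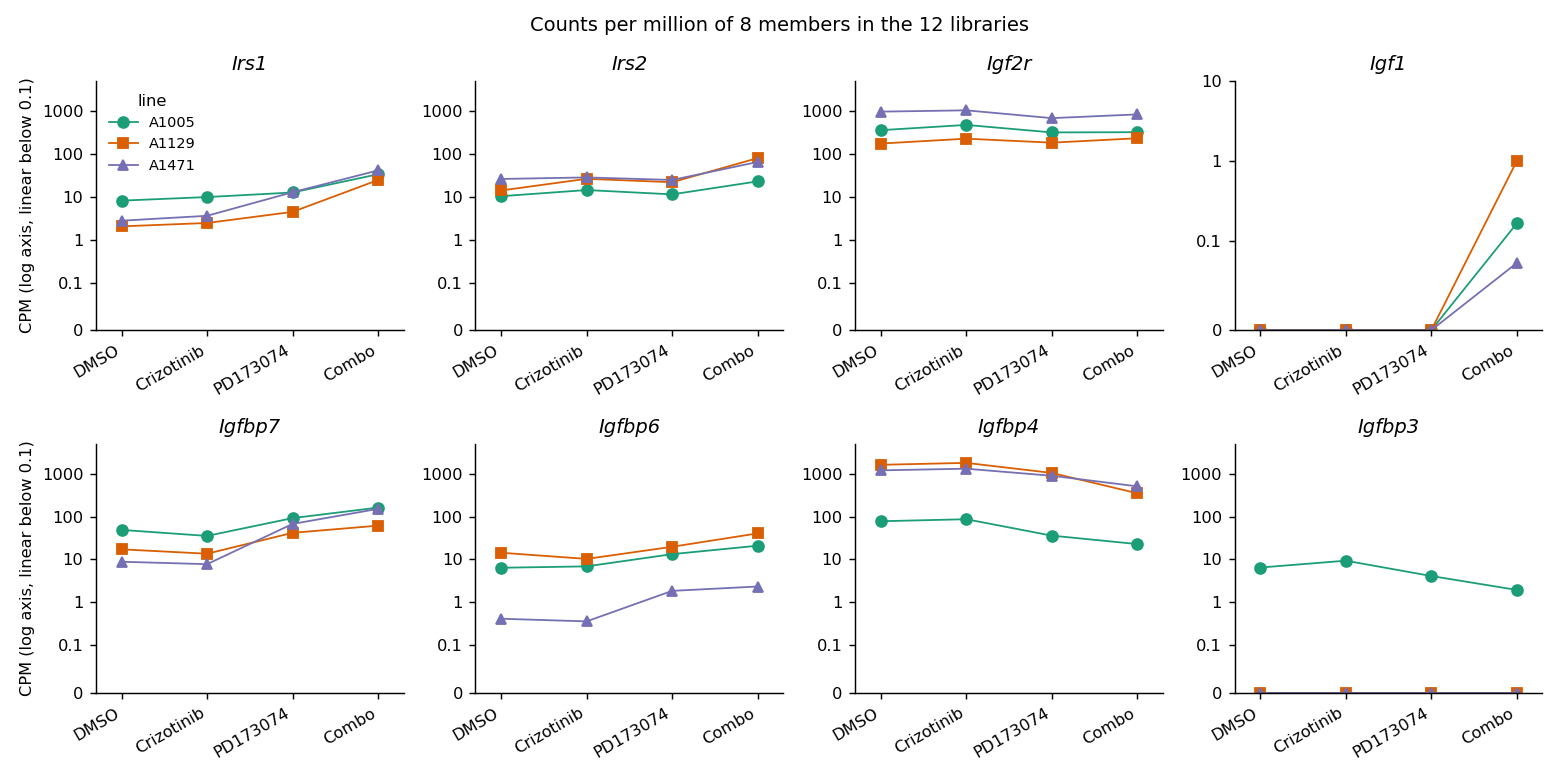
CPM (vertical axis, logarithmic above 0.1 and linear below) of 8 genes in the 12 libraries by treatment, with 1 point per library and a line joining the libraries of a cell line; the Igf1 panel has its own scale. Irs1 was 24.6 to 41.1 CPM in the Combo libraries and at most 12.7 CPM in the others, Igfbp4 was lower with Combo than with DMSO in each line, and Igfbp3 was above 0 in A1005 only.

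Irs1, the adaptor best known from insulin and IGF-I receptor signalling (mm10 chr1:82233101-82291416, minus strand), had the highest values in the combination. It was at 8.12, 2.04 and 2.76 CPM with DMSO in A1005, A1129 and A1471, and at 9.84, 2.44 and 3.59 CPM with Crizotinib. With PD173074 it was at 12.6, 4.44 and 12.7 CPM, and with the combination at 33.5, 24.6 and 41.1 CPM. The Combo libraries were all above the 9 others, a pattern whose share over all genes was not counted. Against the 3 DMSO libraries alone, 13.8% of all genes tested had all 3 Combo libraries above. Irs1 rose with the combination against DMSO by a log2 fold change of 2.94 ± 0.70 (SE, n = 3), 7.68-fold, with an edgeR adjusted p of 0.0219, and by 3.15 ± 0.37 in the paired fit (adjusted p = 9.48e-05). The log2 changes of A1005, A1129 and A1471 were 2.03, 3.51 and 3.83. Without A1129 or without A1471 the unpaired edgeR adjusted p was 0.107 or 0.27, while in the paired fit it was at most 0.0055 when any 1 line was left out. Gm9747 overlaps the exons of Irs1 on the other strand and had at most 1 count in a library.

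Irs2 (mm10 chr8:10984681-11008458, minus strand), the adaptor that shares the docking role of Irs1, was at 10.3, 14.0 and 26.0 CPM with DMSO in A1005, A1129 and A1471. With Crizotinib it was at 14.3, 26.2 and 28.3 CPM, and with PD173074 at 11.4, 21.8 and 24.6 CPM. With the combination it was at 22.8, 79.6 and 64.7 CPM. The Combo and DMSO libraries overlapped, since A1005 with the combination lay below A1471 with DMSO. Within lines, Irs2 was higher with the combination in 3 of 3, a description without the share over all genes. The log2 fold change against DMSO was 1.73 ± 0.53 (SE, n = 3) with an unpaired edgeR adjusted p of 0.0548, and in the paired fit Irs2 rose by 1.67 ± 0.23 (adjusted p = 0.000203). By line it was 1.14, 2.49 and 1.31. Per kilobase of exon, Irs2 was the higher of the pair in 11 of the 12 libraries, and Irs1 reached 1.01 times the level of Irs2 in A1005 with the combination, from 0.545 times with DMSO. In A1129 the ratio of Irs1 to Irs2 went from 0.101 to 0.213 and in A1471 from 0.0736 to 0.439.

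Igf2r (mm10 chr17:12682406-12769664, minus strand) was at 357, 174 and 966 CPM with DMSO in A1005, A1129 and A1471. With Crizotinib it was at 474, 226 and 1037 CPM, with PD173074 at 317, 183 and 682 CPM, and with the combination at 321, 231 and 833 CPM. A1471 was the highest and A1129 the lowest line in every treatment. Igf2r passed the test in none of the 7 comparisons in either fit. DESeq2 with the line as a covariate called it lower with PD173074 than with Crizotinib (log2 fold change -0.50, adjusted p = 0.0165). The log2 fold change in the combination against DMSO was -0.11 ± 0.78 (SE, n = 3; unpaired edgeR adjusted p = 0.952) and 0.01 ± 0.13 in the paired fit (adjusted p = 0.947), and it was -0.16, 0.41 and -0.21 in the 3 lines. The antisense gene Airn overlaps 519 bases of its exons and had at most 133 counts in a library, and the counting's use of strand is not given in the sources used here.

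Among the binding proteins, Igfbp7 (mm10 chr5:77349240-77408041, minus strand), a secreted protein of the extracellular matrix, was higher with the combination. It was at 48.9, 17.2 and 8.84 CPM with DMSO in A1005, A1129 and A1471, at 35.4, 13.6 and 7.76 CPM with Crizotinib, at 92.1, 41.8 and 67.4 CPM with PD173074, and at 162, 61.4 and 151 CPM with the combination. All 3 Combo libraries were above all 3 DMSO libraries, as in 13.8% of all genes tested. Of the 3 PD173074 libraries 2 were as well, a pattern whose share over all genes was not counted. The log2 fold change against DMSO was 2.32 ± 0.73 (SE, n = 3) with an unpaired edgeR adjusted p of 0.0616, and in the paired fit Igfbp7 rose by 2.51 ± 0.44 (adjusted p = 0.000867). The log2 changes of the 3 lines were 1.73, 1.83 and 4.08, with A1471 the highest. The end of Polr2b, a gene at 2388 to 3993 counts per library on the other strand, overlaps 85 bases of Igfbp7 exons.

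Igfbp6 (mm10 chr15:102144362-102149511), which prefers IGF-II over IGF-I, followed the same direction at lower counts. It was at 6.40, 14.3 and 0.414 CPM with DMSO in A1005, A1129 and A1471, and at 6.90, 10.3 and 0.359 CPM with Crizotinib. With PD173074 it was at 13.3, 19.8 and 1.85 CPM, and with the combination at 20.9, 40.5 and 2.34 CPM. The groups overlapped because A1471 was far below the other lines in every treatment, with 6 counts in its DMSO library and 31 in its Combo library. The log2 fold change against DMSO was 1.59 ± 1.41 (SE, n = 3; unpaired edgeR adjusted p = 0.514), and in the paired fit Igfbp6 rose by 1.69 ± 0.24 (adjusted p = 0.000279), by 1.69, 1.49 and 2.17 in the 3 lines.

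Igfbp4 (mm10 chr11:99041244-99054392), a binding protein that restrains IGF action and is cut by the protease Pappa, moved the other way. It was at 77.8, 1613 and 1197 CPM with DMSO in A1005, A1129 and A1471, and at 86.8, 1789 and 1309 CPM with Crizotinib. With PD173074 it was at 36.0, 1043 and 895 CPM, and with the combination at 22.8, 350 and 508 CPM. It was lower with the combination than with DMSO in 3 of 3 lines, a description without the share over all genes. However, the lowest DMSO library, A1005, lay below the Combo libraries of the other lines. The log2 fold change against DMSO was -1.71 ± 1.49 (SE, n = 3; unpaired edgeR adjusted p = 0.504), and in the paired fit Igfbp4 fell by 1.72 ± 0.20 on the log2 scale (adjusted p = 8.27e-05). By line the change was -1.76, -2.20 and -1.24. Without A1005 the unpaired edgeR adjusted p was 0.0172.

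Igfbp3 (mm10 chr11:7206086-7213923, minus strand), the main carrier of IGFs in serum, was detected in A1005 only. There it had 83 counts with DMSO, 137 with Crizotinib, 68 with PD173074 and 35 with the combination, or 6.48, 9.36, 4.11 and 1.95 CPM. The 8 libraries of A1129 and A1471 had 0 counts, which over their 115317280 counts allows up to 0.0260 CPM. The log2 fold change of the combination against DMSO was -1.70 ± 2.92 (SE; unpaired edgeR adjusted p = 0.768), and -1.71 ± 0.50 in the paired fit (adjusted p = 0.0447), a value that rests on the 4 libraries of 1 line. DESeq2 with the same covariate gave an adjusted p of 0.936, so no change of Igfbp3 across lines can be read.

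**Figure D2:**
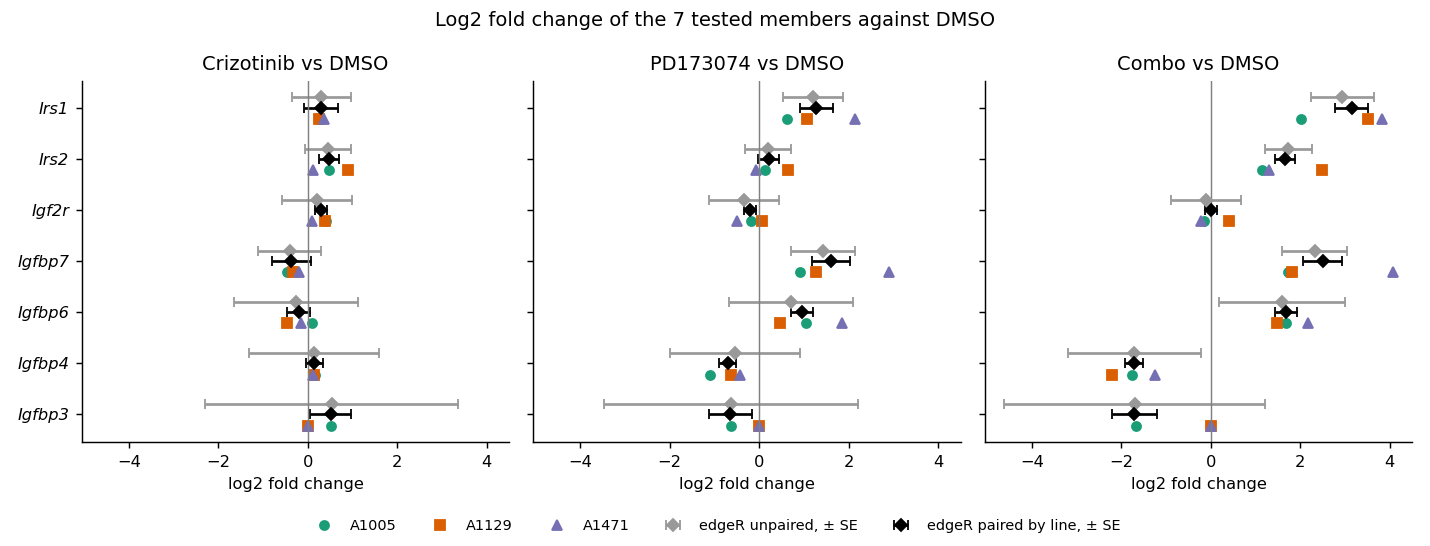
Log2 fold change against DMSO (horizontal axis) of the 7 tested genes in each of 3 comparisons. Grey and black diamonds with bars give the edgeR estimate ± SE of the unpaired and the paired fit, and coloured symbols give the difference within each line, which is 0 for Igfbp3 in A1129 and A1471 because both libraries had 0 counts. With the combination all 3 lines lie above 0 for Irs1, Irs2, Igfbp7 and Igfbp6 and below 0 for Igfbp4.

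Counted over the 7 tested genes, the combination against DMSO gave 1 higher call (Irs1) and 0 lower calls in the unpaired fit, beside 14.4% of all genes tested (6.1% higher and 8.28% lower). In the paired fit it gave 4 higher calls (Irs1, Irs2, Igfbp6 and Igfbp7) and 2 lower calls (Igfbp4 and Igfbp3), beside 54.8% of all genes (28.6% higher and 26.2% lower). The unpaired share equals that of the table at large, and the paired share, from 7 genes, was not tested against it. Of all genes tested, 13.8% had all 3 Combo libraries above all 3 DMSO libraries, as 2 of the 7 did (Irs1 and Igfbp7). The median log2 fold change of the 7 was 1.59, the value of Igfbp6, which was not called in the unpaired fit, against 0.02 over all genes. The genes were chosen with earlier results of these data known, so this median is a description and was not tested.

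The single inhibitors were compared with DMSO in the same fits. Crizotinib gave 0 calls among the 7 genes in both edgeR fits, as it did among all genes (0% in both fits, with 18 genes at an unadjusted p under 0.05 in the unpaired fit and 258 in the paired fit), and DESeq2 called none of the 7. The log2 changes of the 7 genes lay between -0.40 and 0.53. PD173074 gave 0 unpaired calls among the 7, beside 0% of all genes, with 307 genes at an unadjusted p under 0.05, and 0 in the paired fit, beside 2.14% of all genes. In the paired fit the log2 change with PD173074 was 1.60 ± 0.43 for Igfbp7 (edgeR adjusted p = 0.092), 1.28 ± 0.37 for Irs1 (0.121), 0.95 ± 0.25 for Igfbp6 (0.0864) and -0.71 ± 0.19 for Igfbp4 (0.101). Each of these 4 had the same sign in 3 of 3 lines, which is a description without the share over all genes. DESeq2 with the line as a covariate called these 4. Irs2 had a log2 change of 0.21 ± 0.23 (edgeR adjusted p = 0.716).

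Against Crizotinib alone, the combination gave 2 calls in the unpaired fit, Irs1 (log2 fold change 2.64 ± 0.69, SE, n = 3; edgeR adjusted p = 0.0333) and Igfbp7 (2.72 ± 0.74, adjusted p = 0.0386), beside 13.2% of all genes. Both lost the call without A1129 (adjusted p of 0.126 and 0.198) and without A1471 (0.336 and 0.274). In both genes all 3 Combo libraries were above all 3 Crizotinib libraries, as in 13.6% of all genes. In the paired fit 6 of the 7 were called, all but Igf2r, beside 53.4% of all genes. The paired call of Igfbp3 (edgeR adjusted p = 0.0207) rests on A1005 alone. For it, DESeq2 with the line as a covariate gave an adjusted p of 0.905. Against PD173074 alone 0 of the 7 were called in the unpaired fit, beside 4.77% of all genes. The 3 Combo libraries of Irs1 were above the 3 PD173074 libraries, as in 8.97% of all genes. In the paired fit 4 were called, beside 39.8% of all genes. These were Irs1, which was higher by 1.87 ± 0.34 on the log2 scale (edgeR adjusted p = 0.00241), Irs2 (1.46 ± 0.22, adjusted p = 0.00091), Igfbp6 (0.74 ± 0.23, adjusted p = 0.0298) and Igfbp4, which was lower (-1.01 ± 0.20, adjusted p = 0.00321). Igfbp7 was at 0.90 ± 0.40 and did not pass (adjusted p = 0.0983). Without A1129 the paired adjusted p was 0.0564 for Irs1 and 0.253 for Igfbp6, and without A1005 it was 0.0931 for Igfbp6.

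PD173074 against Crizotinib gave 0 calls in the unpaired fit among the 7 genes and among all genes (0%, with 444 genes at an unadjusted p under 0.05), and unpaired DESeq2 also called none of the 7. The paired fit called 3 of the 7, beside 4.22% of all genes. Igfbp7 was higher with PD173074 by 1.97 ± 0.43 on the log2 scale (edgeR adjusted p = 0.0311) and Igfbp6 by 1.15 ± 0.25 (adjusted p = 0.0305), whereas Igfbp4 was lower (-0.85 ± 0.19, adjusted p = 0.0368). Leaving out any 1 line ended these calls, with paired edgeR adjusted p of 0.08 to 0.273, except that of Igfbp7 without A1471 (0.0201). Departure from additivity, the effect of Combo minus the added effects of the single inhibitors, gave 0 unpaired calls among the 7, beside 0.918% of all genes, and 1 in the paired fit, beside 16.2% of all genes. That gene was Igfbp4, at -1.16 ± 0.28 on the log2 scale (edgeR adjusted p = 0.0216), with -0.81, -1.72 and -0.95 in the 3 lines. Its call was lost when any 1 line was left out, with a paired edgeR adjusted p of 0.0518 without A1005, 0.145 without A1129 and 0.0676 without A1471. Irs1 was at 1.57 ± 0.51 (adjusted p = 0.0631) and Irs2 at 0.99 ± 0.31 (adjusted p = 0.0575), and DESeq2 with the line as a covariate called both of them and Igfbp4.

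The order of the mean levels was Combo, PD173074, DMSO and Crizotinib for Igfbp6 and Igfbp7, and the reverse for Igfbp4, with Crizotinib highest and Combo lowest. For Irs1 it was Combo, PD173074, Crizotinib and DMSO, and for Irs2 Combo, Crizotinib, PD173074 and DMSO. In the unpaired fit no neighbours in these orders passed the test. In the paired fit Combo differed from its neighbour for Irs1, Irs2, Igfbp4 and Igfbp6 but not for Igfbp7, and no other neighbours differed. Igf2r had the order Crizotinib, DMSO, Combo and PD173074, with no neighbours that differed in either fit.

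Levels per kilobase of exon give the make-up of the binding protein transcripts. The DMSO libraries of A1129 and A1471 were almost wholly Igfbp4, at 93.1% and 97.2% of the summed Igfbp CPM per kilobase, with Igfbp7 at 3.63% and 2.62%. A1005 differed from them, with Igfbp4 at 26.8% and Igfbp7 at 61.4%. With the combination the shares of Igfbp4 were 3.26%, 47.6% and 47.5% in A1005, A1129 and A1471, and those of Igfbp7 were 84.5%, 30.5% and 51.7%. The ratio of Igfbp4 to Igfbp7 per kilobase went from 0.436 to 0.0386 in A1005, from 25.6 to 1.56 in A1129 and from 37.1 to 0.919 in A1471. With PD173074 alone it was 0.107, 6.83 and 3.64, and with Crizotinib alone 0.671, 36.0 and 46.1. Thus the ratio was in the order Crizotinib, DMSO, PD173074 and Combo, from highest to lowest, in each of the 3 lines. This order was not tested, and how often other gene pairs show it was not counted. The summed level did not move one way, going from 65.9 to 159 CPM per kilobase in A1005, from 392 to 167 in A1129 and from 279 to 242 in A1471. Fewer cells that express a gene and less RNA per cell cannot be told apart in these bulk samples.

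**Figure D3:**
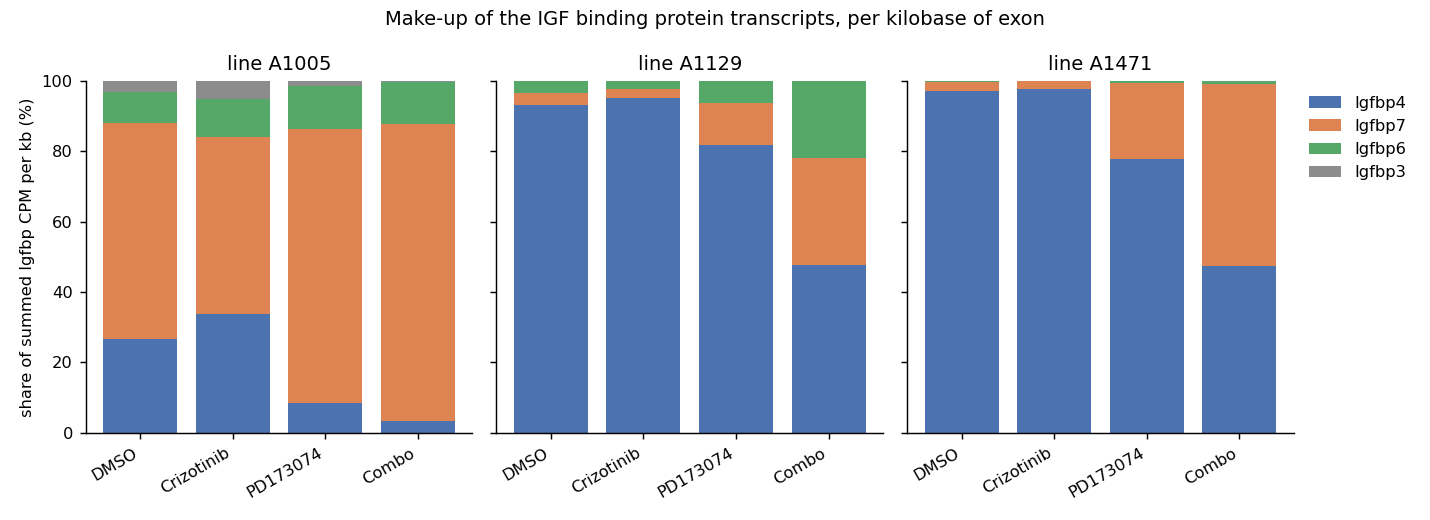
Share of each binding protein gene in the summed CPM per kilobase of exon of the Igfbp genes (vertical axis, percent), with 1 bar per library, grouped by cell line. The Igfbp4 share is lower and the Igfbp7 share higher with PD173074 and with Combo than with DMSO in each line, and Igfbp2 and Igfbp5 are at 0 throughout.

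The rest of the IGF axis was examined in a list of 13 genes of ligands, receptors, binding proteins, proteases and their inhibitors, of which 7 were tested. In the combination against DMSO 1 rose and 1 fell in the unpaired fit, and 3 rose and 1 fell in the paired fit, where 14.4% and 54.8% of all genes were called. Htra1, a secreted protease that can cleave IGF binding proteins, was at 186, 166 and 281 CPM with DMSO in A1005, A1129 and A1471 and at 434, 618 and 809 CPM with the combination, a log2 fold change of 1.55 ± 0.35 (SE, n = 3; edgeR adjusted p = 0.0177). Stc1, a stanniocalcin of the family that inhibits Pappa proteases, was at 12.6, 42.1 and 29.1 CPM with DMSO and at 5.61, 7.90 and 6.41 CPM with the combination (-2.07 ± 0.50, adjusted p = 0.023). Pappa itself had 1 count, in A1005 with PD173074, and 0 counts in every other library, and Pappa2 had at most 50 counts in a library. A link between Stc1, these proteases and Igfbp4 was not tested. The kinase receptor Igf1r was expressed in every library, at 73.2 ± 16.9 CPM (SD, n = 3) with DMSO and 84.0 ± 19.6 CPM with the combination, and did not pass the test in either fit (log2 fold change 0.20 ± 0.30, edgeR adjusted p = 0.728, and 0.263 in the paired fit). The insulin receptor Insr was at 48.1 ± 11.3 CPM with DMSO and 66.7 ± 19.3 CPM with the combination (0.47 ± 0.30, adjusted p = 0.342), and was called in the paired fit (adjusted p = 0.00288).

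Among 14 tested genes of 17 other receptor adaptors, 1 rose and 1 fell with the combination in the unpaired fit. In the paired fit 6 rose and 2 fell, beside 28.6% and 26.2% of all genes. Counted in either direction, these calls were close to the 14.4% and 54.8% of all genes. Gab1, a docking protein used by Met and other receptors, rose from 8.59, 15.1 and 10.5 CPM with DMSO to 21.0, 58.9 and 40.7 CPM (log2 fold change 1.82 ± 0.39, SE, n = 3; edgeR adjusted p = 0.0149). Dok1, an adaptor that dampens Ras signalling, fell from 48.6, 68.5 and 71.5 CPM to 36.2, 14.2 and 17.5 CPM (-1.47 ± 0.34, adjusted p = 0.0184).

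In the PI3K and AKT pathway, which Irs proteins feed, 4 of 22 tested genes of 23 rose and 0 fell in the unpaired fit. In the paired fit 10 rose and 3 fell. Counted in either direction, these calls were near the 14.4% and 54.8% of all genes. By direction, 6.1% of all genes rose and 8.28% fell in the unpaired fit, and 28.6% rose and 26.2% fell in the paired fit. The larger share of rises in this list was not tested. The 4 were the regulatory subunits Pik3r3 (log2 fold change 2.48 ± 0.48, SE, n = 3; edgeR adjusted p = 0.00898) and Pik3r1 (1.95 ± 0.27, adjusted p = 0.00177), the kinase Mtor (1.07 ± 0.16, adjusted p = 0.00234) and its upstream brake Tsc1 (0.65 ± 0.18, adjusted p = 0.0407). Pik3r1, the p85-alpha subunit that binds Irs proteins, went from 93.3, 50.9 and 77.7 CPM to 303, 343 and 214 CPM. Pik3r3 went from 5.07, 10.7 and 7.74 CPM to 30.8, 43.7 and 56.9 CPM. The median log2 fold change of this list, also chosen with earlier results of these data known, was 0.33, against 0.02 over all genes.

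For comparison, transcriptional readouts of ERK activity fell in 8 of 10 tested genes in the unpaired fit and in 9 in the paired fit, beside 8.28% and 26.2% of all genes, and 0 rose. Spry4, Ccnd1, Dusp6 and Etv5 had the largest falls, with log2 fold changes of -5.98 ± 0.94, -5.29 ± 0.36, -5.03 ± 0.54 and -4.99 ± 0.30 (SE, n = 3; edgeR adjusted p of 0.00343, 4.59e-05, 0.000486 and 4.3e-05). With PD173074 against DMSO, 0 of these 10 were called in the unpaired fit and 4 fell in the paired fit. Over all genes, 0% and 2.14% were called in either direction. Egr1 of this list went the other way, at 21.1 ± 12.1 CPM (SD, n = 3) with DMSO and 74.9 ± 26.2 CPM with PD173074. Its log2 fold change was 1.83 ± 0.68 (SE) and was called in neither fit (paired edgeR adjusted p = 0.101).

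**Figure D4:**
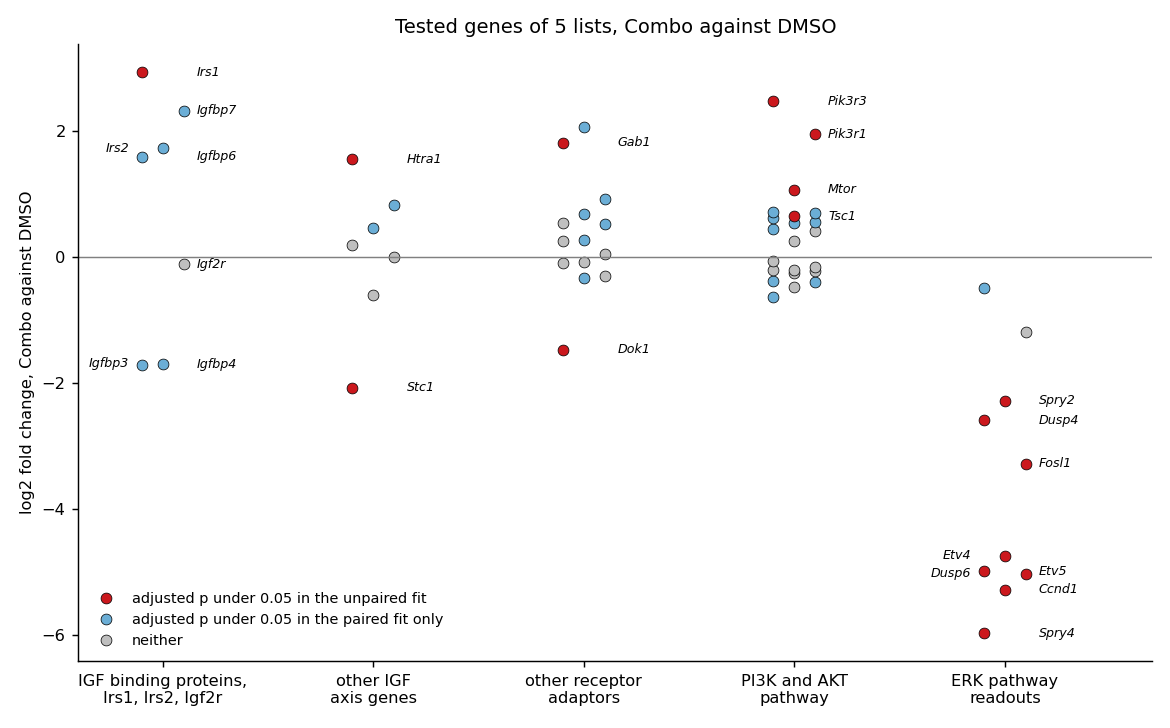
Log2 fold change of Combo against DMSO (vertical axis, in the unpaired fit) for the tested genes of 5 lists, with 1 point per gene. Red points had an adjusted p under 0.05 in the unpaired fit and blue points passed only in the paired fit; 8 of 10 ERK readouts are red and below 0, and 4 of 22 PI3K and AKT genes are red and above 0.

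The genes with the pattern most like each of the 7 were taken as the 3 with the highest Pearson correlation of log2 CPM, centred within each line, over the 12 libraries, among 9612 genes. The treatments alone move many genes together, so the values are descriptions. Irs1 was followed by Zbtb1 (r = 0.995), Klf3 (0.994) and Stap2 (0.994), and Irs2 by Golgb1, Tyk2 and Dcaf8 (0.978 to 0.984). Igfbp7 was followed by Xaf1 (0.991), Gbp9 (0.988) and Gbp3 (0.987), which are interferon-inducible genes, and Igfbp6 by Tgfb2, Parp9 and Apol9a (0.991 to 0.995). The genes nearest to Igfbp4 were Sgms2, Wdr36 and the matrix protease Mmp3 (0.984 to 0.994). Igf2r was nearest to Bcr, Lama5 and Copa (0.933 to 0.943). Igfbp3 was nearest to Cd200, Inpp5f and Bcl2l1 (0.922 to 0.936), which rests on the 4 libraries of A1005.

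Summed levels of the other cell type lists ranged as follows in the DMSO and Combo libraries. The 9 mesenchymal markers summed to 3758 to 5780 CPM with DMSO and 3897 to 10030 CPM with the combination, although Twist1, the only one of them called in the unpaired fit, fell (log2 fold change -1.09, edgeR adjusted p = 0.00156), Vim was at -0.14 (0.739) and the matrix gene Fn1, which reached 5093 CPM, at 1.64 (0.247). The 7 immune markers summed to 4.47 to 31.5 CPM and 8.30 to 42.0 CPM. The 8 luminal markers summed to 16.2 to 74.2 CPM and 7.09 to 51.8 CPM, the 6 basal markers to 0.138 to 4.29 CPM and 1.66 to 5.78 CPM, the 5 endothelial markers to at most 0.752 CPM and the 5 adipocyte markers to 7.05 to 19.9 CPM and 11.4 to 17.9 CPM. The part of these differences in the values of the IGF genes was not tested.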

How the data were processed

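RNA was measured in 12 tumoursphere libraries of 3 cell lines and 4 treatments, grouped by the sample labels. The authors deposited raw read counts per Ensembl gene, not normalized. Their processing notes name bcl2fastq, STAR, HTSeq and mm10; versions, annotation release and use of strand are not given in the sources used here. The 10 genes and the lists were chosen with earlier results of these data known.

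Low counts were removed by filterByExpr (at least 10 counts, total 15), TMM factors were applied, and edgeR 4.0.16 (quasi-likelihood F-test, R 4.3.3) was fitted unpaired, with Benjamini-Hochberg adjustment over 13836 genes. The study also left its libraries unpaired but used DESeq2 and limma with a fold-change minimum, which was not applied here. CPM used TMM library sizes, and log2 CPM a prior count of 2. The lines pair the libraries: deviations from group means correlated at 0.766 or more (mean 0.871, 18 pairs) within a line and at -0.422 on average between lines (36 pairs). No libraries were duplicates. P-values rest on 3 lines. Floors cover counting error only.

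Named genes were the 10 members, per list up to 4 called genes with the largest change in the combination, Igf1r, Insr and Igf2, and the 3 genes most like each member. Pappa, Pappa2 and Egr1 were named in addition, as limits on what is said of their lists. Cell type markers were named only as checks of the samples. Loci and exon lengths came from GENCODE of mm10 and promoters from RefSeq. Alternatives were the replicate block (the paired fit), DESeq2 1.42.0, limma-voom (limma 3.58.1), other scalings and filters, and leaving out each line. Tables and plots used Python 3.11.15, pandas 2.3.3, numpy 2.4.6 and matplotlib 3.10.9.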

Additional observations from a re-analysis of the deposited data

Results flagged for a closer look

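Departure from additivity was flagged for Igfbp4, at -1.16 on the log2 scale in the fit paired by line (edgeR adjusted p = 0.0216), a difference between the effect of PD173074 with and without Crizotinib. It was not called in the unpaired fit (adjusted p = 1) or when any 1 line was left out of the paired fit (adjusted p of 0.0518 to 0.145). In 4 further cases 1 line moved against the other 2, each from 1 library per treatment and line, and these differences between lines were not tested. Igf2r was higher with the combination in A1129 by 0.409 on the log2 scale and lower in the others, and with PD173074 it was higher in A1129 by 0.069. Irs2 with PD173074 changed by -0.0759 in A1471 and was higher in the others, and Igfbp6 with Crizotinib was higher in A1005 by 0.106 and lower in the others.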

How the results depend on the processing

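The replicate block (the cell line as a covariate) moved the counts most. Of the 7 tested genes, edgeR with the block called 6 in Combo against DMSO, 6 in Combo against Crizotinib, 4 in Combo against PD173074, 3 in PD173074 against Crizotinib, 1 in the departure from additivity and 0 in each single inhibitor against DMSO. Over all genes it called 7578, 7389, 5506, 584 and 2241 in the first 5 of these and 296 in PD173074 against DMSO. DESeq2 with the block called 5, 5, 4, 4, 3 and 4 of the 7 in the same order, the last with PD173074 against DMSO, and 7357, 7223, 5467, 934, 2792 and 635 of all genes, with 2 in Crizotinib against DMSO. Unpaired DESeq2 called 3 of the 7 in Combo against DMSO and 1 in Combo against PD173074, and 3032, 2930, 1556, 52, 459 and 17 of all genes in that order, with 1 in Crizotinib against DMSO. Limma-voom called 2 of the 7 in Combo against DMSO, and a minimum of 10 counts in every library gave 3. Without a filter on low counts, 1160, 1146, 401 and 66 of all genes were called in Combo against DMSO, against Crizotinib and against PD173074 and in the departure from additivity.

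Leaving out 1 line, unpaired or with the block, gave 0 to 6 of the 7 in Combo against DMSO, 0 to 7 in Combo against Crizotinib, 0 to 5 in Combo against PD173074, and 0 to 1 in PD173074 against Crizotinib and in the departure from additivity. In the first 2 of these the count of 0 came without A1129 and without A1471 in the unpaired fit. Over all genes the ranges were 120 to 6823, 109 to 6545, 60 to 4734, 0 to 357 and 0 to 1679, and 0 to 131 in PD173074 against DMSO.

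Directions turned for values near 0. Igf2r in Combo against DMSO was 0.0118 with the block, 0.0128 with limma-voom, 0.0377 with DESeq2 and the block, and -0.181 to 0.151 with 1 line left out. In the departure from additivity Igf2r was -0.0692, -0.0806, -0.0341 and -0.255 to 0.158 in the same order. With 1 line left out, Igfbp6 with Crizotinib was -0.468 to 0.0818 and Irs2 with PD173074 -0.0101 to 0.463, both turning without A1129, and Igfbp3 with PD173074 0.193 with limma-voom. The cause of these changes was not tested. The genes most like each of the 7 kept at least 2 of 3 with a prior count of 0.5, and 0 of 3 without centring within lines, except 1 for Igfbp7. Without a filter Igf1, with 20 counts in all, had an edgeR adjusted p of 0.182 in Combo against DMSO.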
